A study of Rattus norvegicus with 8 samples.

Results

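For every gene, the hypoxia response of the lung after cobalt pretreatment was set against the hypoxia response after saline pretreatment. The response of an array is the log2 ratio of hypoxia RNA over 0 h RNA, and the difference is the mean of the 4 cobalt arrays minus the mean of the 4 saline arrays. All 8 arrays of the series enter it. Of the 41012 probes on the array 28440 passed the filter on low signal, and they stand for 24153 genes, of which 12065 have a gene symbol. A difference above 0 therefore means that a gene was induced more, or repressed less, by hypoxia after cobalt than after saline.

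The samples are total RNA of rat lung. For 7 days, rats received normal saline or cobalt (12.5 mg/kg body weight), after which they were kept at a simulated altitude of 30000 ft, a severe hypobaric hypoxia, for 6, 12, 24 or 48 h. Each combination of pretreatment and duration is 1 array, and the other channel of that array holds the 0 h RNA of the same pretreatment. The 0 h animals of the cobalt group had thus received cobalt too, so an effect of cobalt at 0 h cancels in a ratio where it was equally large under hypoxia, and enters the difference where it was not. The labels used here give neither the number of animals behind an RNA nor their age or strain, and the p-values measure only the spread between arrays of different duration. The array titles give 1 control name to all 4 saline arrays and another to all 4 cobalt arrays. They do not say whether each name stands for 1 pool of 0 h RNA. If it does, every call, every non-overlap of the groups and every 0 h channel value below compares 1 control RNA with another.

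Cells sense oxygen through prolyl hydroxylases, which mark the alpha subunits of the hypoxia-inducible factors (HIF) for destruction. Cobalt ions interfere with these iron-dependent enzymes, which stabilises HIF in normal air, and cobalt is for that reason used as a chemical mimic of hypoxia. In the lung, HIF-driven genes serve glycolysis, angiogenesis and vascular tone, while the thin endothelial and epithelial layers of the alveoli are the site at which severe hypobaric hypoxia can lead to oedema.

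Dye and slide do not cancel in this comparison. Hypoxia RNA was labelled with Cy5 (red) on the 4 saline arrays, which lie on slide 1 and were read in scan 1, and with Cy3 (green) on the 4 cobalt arrays, which lie on slide 2 and were read in scan 2. The difference thus equals -2 times the mean red-over-green log ratio over all 8 arrays, and pretreatment, dye orientation, slide and scan cannot be told apart. A saturated red signal is a lower bound, and it raises the difference on both slides. Before normalization the red-over-green ratio of the brightest of 4 equal groups of probes had medians of 0.97 to 1.31 on the saline slide and 1.36 to 1.97 on the cobalt slide, which the loess step within each array takes out. With plain median centring in place of loess, the median of all genes moved from -0.04 to -0.78, and values under that setting are given relative to -0.78 where stated. This alternative changes the direction of many genes that are higher here, and gene groups are given with their values under it, the smaller lists as a range. Values of single genes under it are as fitted, and a negative one above -0.78 still lies above the median of all genes there. It called 14959 of 19070 genes lower, so a lower group that stays lower under it gains no support from that.

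In the limma fit, 7283 of 24153 genes (30.2%) passed a Benjamini-Hochberg adjusted p of 0.05. The difference was above 0 for 3063 of them (12.7% of genes tested) and below 0 for 4220 (17.5%). These shares are the background for the counts in every list below. The 4 cobalt values lay entirely above the 4 saline values for 3167 genes (13.1%) and entirely below for 4533 (18.8%). An absolute difference over 1, a 2-fold change, was reached by 1065 of the called genes. Of the called genes 7113 (97.7%) had 1 sign of the difference at all 4 durations, against 11954 (49.5%) of all genes, and a call already favours 1 sign.

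Many called genes had opposite signs after the 2 pretreatments. Of the 3063 genes with a higher cobalt response, 1055 (34.4%) lay below 0 on all 4 saline arrays and lay above 0 on all 4 cobalt arrays. Of the 4220 genes with a lower cobalt response, 1800 (42.7%) lay above 0 on all saline and below 0 on all cobalt arrays. Among genes without a call 0.91% had such opposite signs, and a call on the difference already favours them. A fixed red-over-green offset of a probe would also give values of opposite sign in the 2 pretreatments. The saline response was larger in size than the cobalt response for 2244 (73.3%) of the higher and 2699 (64.0%) of the lower genes. Among the 16870 genes without a call this held for 9711 (57.6%), so the share of the lower genes is near that of uncalled genes. Over the 28440 probes, the ratios of any 2 saline arrays correlated at 0.57 to 0.71, those of any 2 cobalt arrays at 0.41 to 0.75 and those of a saline and a cobalt array at -0.10 to 0.27, where the arrays of a pretreatment share dye and slide and may share their 0 h RNA.

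**Figure D1:**
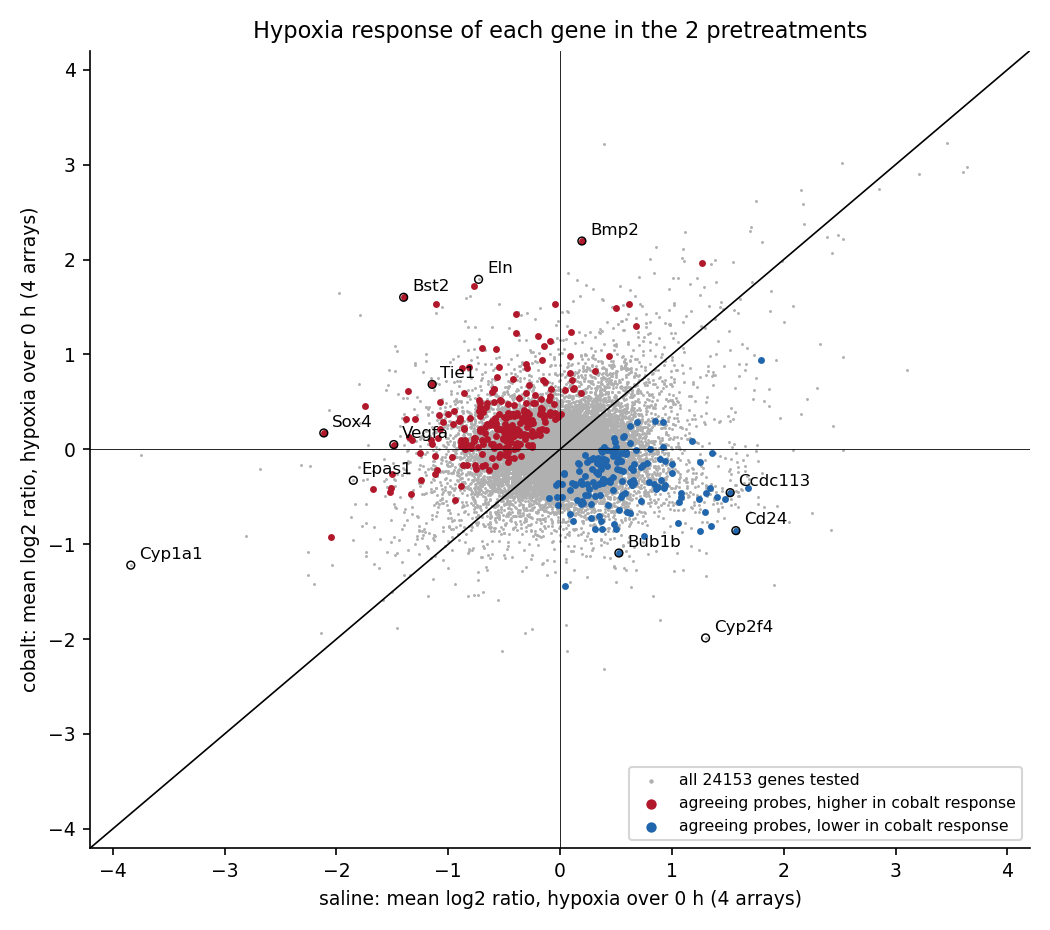
Mean log2 ratio of hypoxia over 0 h on the 4 saline arrays (horizontal axis) and on the 4 cobalt arrays (vertical axis), 1 grey point per gene for all 24153 genes; red and blue points are genes whose probes agree on a higher or lower cobalt response, and the diagonal marks equal responses. Red genes had a median absolute ratio of 0.48 after saline and 0.28 after cobalt, Bmp2 lies high on the cobalt axis alone, and with median centring in place of loess many of the red genes, Vegfa among them, and Epas1 turn to negative differences.

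A smaller class moved the same way after both pretreatments but by a different amount, where a fixed offset of a probe alone would have given opposite signs; the difference between the responses still holds any such offset. It held 65 higher genes with all 8 ratios above 0 and 190 with all 8 below 0, together 8.33% of the higher genes, and 159 and 38 lower genes (4.67%). Among genes without a call the share was 15.7%. With a symbol, both channels above background and no saturated spot, 225 such genes were left. Vipr1, a receptor of vasoactive intestinal peptide and so part of vasodilator signalling, stood at -2.42, -3.17, -2.85 and -2.80 on the saline arrays of 6, 12, 24 and 48 h and at -0.62, -0.84, -1.1 and -1.11 on the cobalt arrays of the same durations. All values are negative and the groups do not overlap: the decrease was smaller after cobalt by 1.89 ± 0.17 (limma estimate ± SE, adjusted p = 0.00017). Anp32a, an acidic nuclear phosphoprotein, had the opposite pattern, with -0.24, -0.23, -0.42 and -0.10 after saline and -1.86, -2.05, -1.74 and -1.91 after cobalt, a difference of -1.64 ± 0.11 (adjusted p = 5.9e-05).

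Among genes measured with more than 1 probe, the lipid phosphatase Plpp3, which breaks down lysophosphatidic acid, lay between -1.60 and -1.40 after saline and between -0.62 and -0.12 after cobalt. Its probes gave 1.1 and 1.41. Nfix, a nuclear factor I transcription factor, lay between -1.36 and -1.06 after saline and between -0.60 and -0.15 after cobalt, and its 3 probes gave 0.77 to 0.92. Both genes thus decreased on every array, and less so after cobalt. With median centring Plpp3 turned to -0.83 and Nfix to -1.24, while Vipr1 kept its sign at 0.32 without a call.

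Probes of different sequence differ in dye bias, so the weight lies on genes for which several probes give the same answer. Of 3482 genes with 2 or more tested probes, 421 (12.1%) had every probe called with 1 sign and no saturated spot, 260 of them higher (7.47%) and 161 lower (4.62%). The sign alone was shared by all probes of 2257 genes (64.8%), and 64 genes had probes called in opposite directions. Where no probe pair shared a run of 20 bases, 402 of 3369 genes (11.9%) agreed, and where a pair overlapped by 20 bases or more, 19 of 113 (16.8%). Leaving out 1 array moved the number of agreeing higher genes to 164 without the cobalt 24 h array, and that of agreeing lower genes to 94 without the cobalt 12 h array.

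The 60-base probes of 3 agreeing genes, each from 2 separate places of its gene, show what such an agreement rests on. Positions are those of the rn3 build in the array files. An aligned span longer than the probe means that the probe lies across a gap in the genome, as a splice junction leaves it. The exon and UTR annotation of these places was not used here.
Vegfa, chr9:10525902-10526287, plus strand: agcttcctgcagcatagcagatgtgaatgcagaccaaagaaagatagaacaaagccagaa
Vegfa, chr9:10519066-10519125, plus strand: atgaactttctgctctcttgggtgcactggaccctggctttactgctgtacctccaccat
Tie1, chr5:138956186-138958614, minus strand: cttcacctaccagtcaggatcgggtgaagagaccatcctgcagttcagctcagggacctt
Tie1, chr5:138955489-138955548, minus strand: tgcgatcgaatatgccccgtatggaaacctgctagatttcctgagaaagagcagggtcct
Ccdc113, chr19:9959966-9961381, minus strand: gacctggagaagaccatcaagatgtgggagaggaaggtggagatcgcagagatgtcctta
Ccdc113, chr19:9971078-9971137, minus strand: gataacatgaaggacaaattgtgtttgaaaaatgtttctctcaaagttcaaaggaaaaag

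The pairs share no run longer than 4 bases for Vegfa and 5 bases for Tie1 and Ccdc113. The Vegfa probes hold 12 and 19 cytosines and gave 1.54 ± 0.13 and 2.07 ± 0.16. The Tie1 probes hold 18 and 14 cytosines and gave 1.70 ± 0.19 and 1.83 ± 0.18, and those of Ccdc113 hold 9 and 6 and gave -1.98 ± 0.19 and -1.94 ± 0.14. All 6 probes were called (limma, adjusted p of at most 0.000338).

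The counterexample is Dnah1, an axonemal dynein heavy chain named here because its probes were called in opposite directions. Both of its probes hold 19 cytosines, and neither is saturated.
Dnah1, chr16:6724493-6724552, minus strand: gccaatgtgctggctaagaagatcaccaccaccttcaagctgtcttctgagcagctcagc
Dnah1, chr16:6693878-6694418, minus strand: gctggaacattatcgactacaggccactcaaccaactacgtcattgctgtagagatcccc
The first gave 0.82 ± 0.25 (adjusted p = 0.0319) and the second -1.81 ± 0.16 (adjusted p = 0.00012). The second follows the other genes of motile cilia below, and the first does not.

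**Figure D2:**
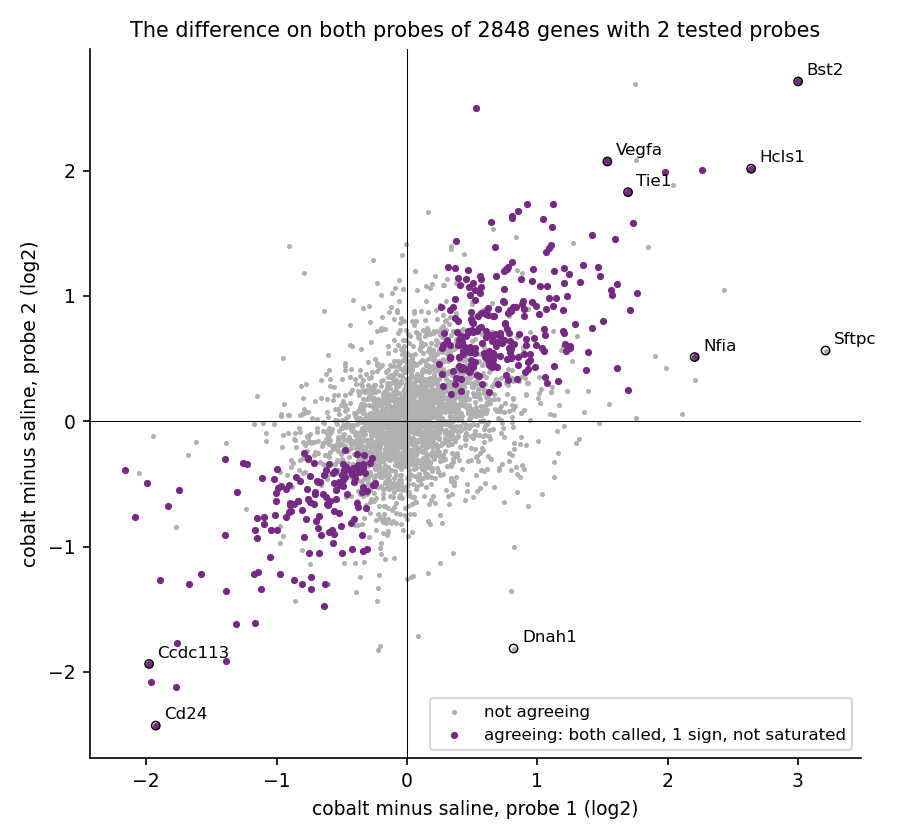
The cobalt minus saline difference (log2) on one probe against the other for the 2848 genes with exactly 2 tested probes; purple points are genes whose probes were both called with 1 sign and without saturation, and grey points are the rest. Vegfa, Tie1 and Ccdc113 lie near the diagonal, whereas Dnah1 lies in the quadrant of opposite signs and Sftpc far from the diagonal.

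The 24 genes with the largest differences among those with agreeing probes were chosen by a rule on symbol, signal and non-overlap. On the higher side stood, among others, Bmp2, a bone morphogenetic protein; Mmrn2, an endothelial extracellular matrix protein; Vegfa, the main angiogenic growth factor; Tie1, an endothelial receptor of the angiopoietin system; and Emilin1, a protein of elastic fibres. On the lower side stood Cfap161, Ccdc113, Dnali1, Cfap126, Drc12, Dnai7, Cabcoco1 and Lrrc46, which are known from motile cilia or sperm flagella. These roles were read after the ranking, and how often they occur among all tested genes was not counted. Their differences, averaged over probes, ran from -2.02 for Cfap161 to -1.37 for Lrrc46, and that of Hspa4l, a chaperone of the heat shock protein 110 family, was -1.95. These members were ranked on the difference itself, so the values that follow describe them and are no test.

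Bst2 (tetherin), an interferon-induced membrane protein that holds back virus particles, stood at -2.15, -0.66, -1.42 and -1.36 after saline and at 1.35, 1.54, 1.96 and 1.56 after cobalt at 6, 12, 24 and 48 h. Every saline value is below 0 and every cobalt value is above 1. The difference was 3.0 ± 0.27 on the brighter probe and 2.71 on the other. Hcls1, an actin-binding signalling protein of blood cells, lay between -1.39 and -0.73 after saline and between 1.36 and 1.72 after cobalt, with 2.64 and 2.01 on its probes.

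Bmp2 differed in form from these. Its saline values of 0.06, 0.69, 0.24 and -0.22 lie around 0, while its cobalt values of 2.02, 2.12, 2.37 and 2.28 read as 4-fold or more at every duration. Its probes gave 2.00 and 2.26. Rab5c, a small GTPase of early endosomes, showed the same form in a weaker degree, with -0.64 to -0.14 after saline and 1.34 to 1.48 after cobalt, and 1.34 to 1.92 on its 3 probes.

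Vegfa had the reverse form. A fixed red-over-green offset of a probe moves the pretreatments in opposite directions, so which of them responded cannot be told in either form. It stood at -1.41, -1.76, -1.31 and -1.47 after saline and at -0.07, 0.19, -0.13 and 0.21 after cobalt, so it was low after saline hypoxia and near the 0 h level after cobalt hypoxia. Tie1 stood at -0.94, -1.52, -1.14 and -0.97 after saline and at 0.29, 0.72, 0.77 and 0.96 after cobalt. Mmrn2 lay between -1.82 and -0.81 and between 0.34 and 0.82, and Emilin1 between -1.35 and -0.26 and between 0.61 and 1.11.

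Sox4, a transcription factor of progenitor cells and of epithelial transition, had one of the strongest saline decreases of the set, at -1.93, -2.52, -2.08 and -1.93, against 0.06, 0.54, -0.14 and 0.22 after cobalt. Its 3 probes gave 1.16 to 2.29. Nfia, like Nfix a nuclear factor I gene, lay between -1.86 and -1.55 and between 0.23 and 0.57, but its probes disagreed in size at 0.51 and 2.21. Pcdh17, a protocadherin, and Raly, an RNA-binding protein, were higher by 1.09 and 1.04 on the brighter probe, and the highest saline value of Pcdh17 (0.75 at 24 h) lay just below its lowest cobalt value (0.76 at 6 h). With median centring Mmrn2 (-0.28), Vegfa (-0.24), Rab5c (-0.42), Emilin1 (-0.09), Pcdh17 (-0.92) and Raly (-1.35) changed sign. Bst2 (0.47), Tie1 (0.49) and Sox4 (0.34) stayed positive without a call.

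Of the lower genes, Cd24, a small surface glycoprotein of epithelial and immature blood cells, stood at 1.84, 2.06, 1.03 and 1.36 after saline and at -0.52, -1.29, -0.61 and -1.01 after cobalt. Every saline value is above 1 and every cobalt value is below 0, and the probes gave -2.43 and -1.93. Bub1b, a kinase of the mitotic checkpoint, varied with duration, with -0.15, 1.04, -0.22 and 1.44 after saline and -0.29, -1.56, -1.53 and -0.99 after cobalt. At 6 h its values were close to each other. Cmbl, a hydrolase, lay between 0.36 and 1.62 and between -0.98 and -0.52.

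**Figure D3:**
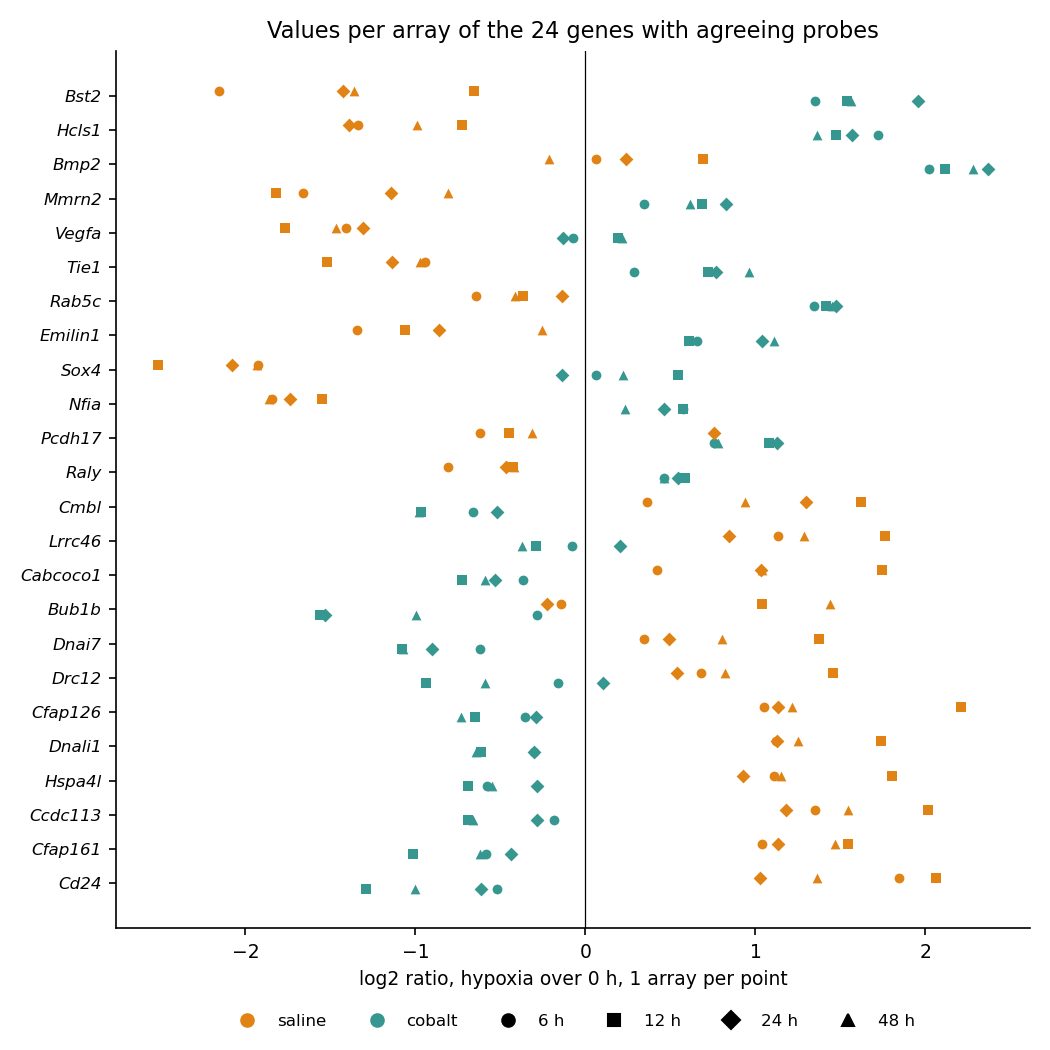
Log2 ratio of hypoxia over 0 h on each of the 8 arrays for the 24 named genes with agreeing probes, taken from the brightest probe of each gene; orange is saline, green is cobalt and the marker shape gives the duration. Saline and cobalt points do not overlap for any gene, as the rule demands. The large ratios lie on the cobalt side for Bmp2 and on the saline side for Vegfa, Sox4 and Nfia. Which pretreatment moved cannot be told apart from a dye offset. With median centring the differences of Mmrn2, Vegfa, Rab5c, Emilin1, Pcdh17 and Raly turn negative.

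Motile cilia formed the list with the largest share of called genes. Ciliated airway cells beat mucus out of the lung, and their axonemes are built from tektins, dynein arms and radial spokes under the control of the transcription factors Foxj1 and Rfx3. Of 15 measured markers of ciliated cells, 14 were lower and none was higher, with a median of -1.69 against -0.04 for all genes tested. Their median ratio was 1.20 after saline and -0.45 after cobalt. With median centring 13 were lower and 1 higher and the median was -2.16 relative to all genes. Most genes move down under that setting, so a lower group that stays lower gains no support from it.

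Ccdc113, a coiled-coil protein of cilia, stood at 1.35, 2.01, 1.18 and 1.55 after saline and at -0.19, -0.69, -0.29 and -0.66 after cobalt. Dnali1, a light intermediate chain of the inner dynein arm, stood at 1.12, 1.74, 1.13 and 1.25 and at -0.30, -0.62, -0.30 and -0.64. In both genes the 12 h saline array is the highest and every cobalt array is negative. Rsph1, a radial spoke protein, lay between 1.41 and 1.93 after saline and between -0.80 and -0.30 after cobalt, a difference of -2.04 ± 0.16 (limma, adjusted p = 9.32e-05). Cfap43, a cilia and flagella protein, differed by -2.11 ± 0.20 on its brightest probe and by -0.50 on its weakest, all 3 called. Foxj1, the master regulator, stood at 0.96, 1.99, 0.82 and 0.95 after saline and at 0.08, -0.29, -0.07 and -0.50 after cobalt (-1.38 ± 0.25, adjusted p = 0.0035).

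The exceptions were small. Tppp3, a tubulin-binding protein with a saturated spot, was at 0.22 ± 0.12 and not called, and at -2.43 with median centring. Rfx3 (-0.21) and Ccdc39 (-0.31), a dynein regulator, were called, but their 0 h channel was not well above background on any saline array, so these are no measured sizes. Both lost the call without several single arrays and turned to 0.24 and 0.03 with median centring.

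The ciliary difference was present at every duration, with medians of -1.33, -2.28, -0.99 and -1.84 at 6, 12, 24 and 48 h. In the single channels, the cobalt level minus the saline level had a median of -0.76 in the hypoxia RNA and 0.76 in the 0 h RNA. The lower response after cobalt thus came in equal parts from a lower level under hypoxia and a higher level at 0 h. A fixed dye offset would enter these 2 channels with equal size and opposite sign, and the 2 readings cannot be told apart here. In bulk RNA, fewer cells of a type and less RNA per cell cannot be told apart either.

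Club cells, the secretory neighbours of ciliated cells in the airway, had 3 of 12 markers lower, 1 higher and 8 not called, with a median of -0.76 (-1.50 relative to all genes with median centring). The shares lower and higher were 25.0% and 8.33%, against 17.5% and 12.7% of all genes. Scgb1a1, the club cell secretory protein, stood at 1.96, 1.01, 0.63 and 0.86 after saline and at -0.91, -0.40, -0.45 and -0.74 after cobalt (-1.74 ± 0.26, adjusted p = 0.0014). Cyp2f4, a cytochrome P450 of club cells, had a difference of similar form and larger size. It stood at 1.06, 0.66, 1.48 and 2.01 after saline and at -1.80, -2.87, -1.63 and -1.65 after cobalt, a difference of -3.29 ± 0.33 (adjusted p = 0.00025).

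Scgb3a2, a related secretoglobin with a saturated signal, differed by -1.90 ± 0.18. Scgb3a1 stood at 0.87, 5.19, 2.49 and 3.88 after saline and at 1.22, -0.51, 1.34 and 1.27 after cobalt and was not called (-2.27 ± 0.81, adjusted p = 0.059); it was called without the saline 6 h array (-3.02, adjusted p = 0.0095) and with median centring (-4.14). Its saline values spread over more than 4 log2 units between arrays. The part of the airway share of each lung sample in these group differences was not tested.

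Heart muscle genes, which lung tissue holds in the sleeves of the pulmonary veins, moved on single arrays. Of 13 measured markers 3 were lower and 10 not called, with a median of -0.41 that reached -1.52 at 48 h; without the saline 6 h array 6 were lower. In the main fit the lower share was 23.1%, against 17.5% of all genes. Tnnt2, cardiac troponin T, stood at 0.93, 2.07, 2.05 and 3.26 after saline and at 0.54, -0.09, 0.42 and -0.90 after cobalt (-2.09 ± 0.46, adjusted p = 0.0086), and troponin I (Tnni3) differed by -1.46 ± 0.32. Myh6, the atrial myosin heavy chain, read 2.85 and 3.73 on the saline 12 and 48 h arrays and at most 0.23 on the other 6, and it was not called unless the saline 6 h array was left out (-2.32, adjusted p = 0.0317). These 2 saline arrays are also those on which the mitotic genes below read highest. With median centring the cardiac median was 0.34 above that of all genes, so its direction relative to the rest turned.

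Promoter sequence was read for the ciliary list because RFX factors act on these genes through X-box motifs. The windows run from 250 bases before to 50 bases after the gene start in the RefSeq promoters of the GRCr8 build, which matched 9856 of the 24153 tested genes. The X-box core GTTGCC, searched on both strands, occurred in 7 of 12 ciliary promoters (58.3%) and in 12.2% of all 27457 promoters. Stretches around the match nearest to the start of 5 ciliary genes follow, with the core in capitals in either orientation.
Tekt1, chr10:57479128-57479187, minus strand: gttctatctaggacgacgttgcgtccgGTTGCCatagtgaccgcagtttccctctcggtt
Tekt2, chr5:143907725-143907780, minus strand: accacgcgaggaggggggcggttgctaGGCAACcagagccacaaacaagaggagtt
Spag6l, chr11:97677749-97677808, plus strand: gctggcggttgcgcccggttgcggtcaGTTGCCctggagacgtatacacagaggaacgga
Rfx3, chr1:235122508-235122567, minus strand: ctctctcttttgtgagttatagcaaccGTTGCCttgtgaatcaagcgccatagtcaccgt
Ccdc113, chr19:9522958-9522990, minus strand: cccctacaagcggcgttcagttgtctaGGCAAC
These matches describe the promoters and are not shown to be bound. In the agreeing lower genes as a whole the core occurred in 20 of 111 promoters (18%), and in the agreeing higher genes in 16 of 174 (9.20%).

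Genes of cell division had lower members and no higher one. Of 37 measured genes 18 were lower and 19 not called, with a median of -0.71 (-1.37 relative to all genes with median centring, where 33 were lower and none higher). The median saline ratio was 0.15 and the median cobalt ratio -0.67. By duration the medians were -0.07, -1.28, -0.62 and -1.04 at 6, 12, 24 and 48 h, so the group did not stand apart at 6 h.

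Pcna, the sliding clamp of replication forks, differed by -0.75 ± 0.17 (limma, adjusted p = 0.0104) with probes at -0.75 and -1.01. Ccnb1, the cyclin of mitotic entry, stood at -0.09, 1.09, -0.15 and 1.08 after saline and at -0.03, -1.20, -1.1 and -0.81 after cobalt (-1.27 ± 0.36, adjusted p = 0.0245). Plk1, a mitotic kinase, followed it with -0.14, 1.28, -0.24 and 1.1 and with 0.23, -1.23, -1.35 and -0.99 (-1.34 ± 0.43, adjusted p = 0.0426). The saline arrays of 12 and 48 h are high and those of 6 and 24 h are near 0, while the cobalt arrays are low from 12 h on. Ttk, a spindle checkpoint kinase, differed by -1.83 ± 0.41 and Ccne1, the cyclin of S phase entry, by -1.80 ± 0.37, each on 1 of its 2 probes; the other probes gave -0.22 and -0.21 without a call. The proliferation marker Mki67 was at -0.70 ± 0.29 and not called (adjusted p = 0.0905); it was called without the cobalt 6 h array (-0.90, adjusted p = 0.0396) and with median centring (-1.38).

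The number of lower cell cycle genes depended on single arrays. It was 7 without the cobalt 12 h array, 7 without the cobalt 24 h array, 10 without the saline 48 h array and 11 without the saline 12 h array. Ccnb1 and Plk1 lost their call without any of the saline 12 h, saline 48 h, cobalt 12 h, cobalt 24 h and cobalt 48 h arrays, and Plk1 also with duration as a factor (adjusted p = 0.0582). In the single channels the cell cycle median of cobalt minus saline was 0.00 for hypoxia RNA and 0.85 for 0 h RNA. Dye, slide, scan and 0 h RNA cannot be told apart from the pretreatment in either value. The cell cycle homology region TTTGAA occurred in 13 of 27 promoters of the list (48.1%) against 18.1% of all promoters, and the CCAAT box in 20 of 27 (74.1%) against 37.7%, both on either strand. Among promoters of tested genes the shares were 12.6% for TTTGAA and 37.6% for the CCAAT box.

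Endothelial genes stood on the other side. Of 24 measured markers 15 were higher in the cobalt response, none was lower and 9 were not called, with a median of 0.71; with median centring 20 were lower and 1 higher and the median was -0.41 relative to all genes. With the software log ratio, which does not use this loess step, 16 were higher and none lower, with a median of 0.83. The direction of the group thus turned with plain median centring. Their median ratio was -0.63 after saline and 0.04 after cobalt. The median difference was 0.46, 0.92, 0.85 and 0.91 at the 4 durations. In the single channels it was 0.60 in the hypoxia RNA and -0.11 in the 0 h RNA, and dye, slide, scan and 0 h RNA cannot be told apart from the pretreatment in either value.

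Tek, the angiopoietin receptor, stood at -0.89, -0.96, -1.13 and -0.89 after saline and at -0.08, -0.22, -0.12 and 0.11 after cobalt (0.89 ± 0.11, adjusted p = 0.000653), with the other probe at 0.33. Cdh5, the cadherin of endothelial junctions, differed by 0.62 ± 0.13 and its other probe by 0.58. Sox18, a transcription factor of vessel and lymphatic development, differed by 1.09 ± 0.23 and 1.38. In all 3 genes the saline ratios are negative on every array. With median centring Tek (-0.56), Cdh5 (-0.84) and Sox18 (-1.18) turned.

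Aplnr, the apelin receptor, stood at -1.03, -1.37, -0.39 and -0.28 after saline and at 0.94, 1.40, 1.15 and 1.66 after cobalt (2.05 ± 0.25, adjusted p = 0.000539; 0.19 with median centring). Plvap, which builds the diaphragms of fenestrae and caveolae, was negative on all 8 arrays, between -2.52 and -1.75 after saline and between -1.11 and -1.03 after cobalt. It was thus about equally reduced on the 4 cobalt arrays and more strongly reduced on the saline arrays (1.18 ± 0.16, -0.58 with median centring).

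Within the VEGF and angiopoietin system, ligands and receptors both contributed. Of 16 genes 8 were higher, none was lower and 8 were not called, with a median of 0.61. With median centring the median became -0.42, which is still 0.36 above all genes, with 2 higher and 8 lower. Besides Vegfa, Tie1 and Tek, the lymphatic receptor Flt4 differed by 0.66 ± 0.08 (-0.45, -0.61, -0.52 and -0.43 against 0.06, 0.12, 0.28 and 0.18; adjusted p = 0.000505). The hypoxia response core ACGTG occurred in 0 of 12 promoters of this list, against 19.7% of all promoters and 24.2% of those of tested genes. This says only that these letters are not in the window.

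The oxygen sensing machinery was represented by 10 genes, of which 4 were higher and none was lower, with a median of 0.15 (0.23 above all genes with median centring). Epas1, which encodes HIF-2 alpha and is strongly expressed in lung endothelium, stood at -1.66, -2.10, -1.92 and -1.72 after saline and at -0.29, -0.12, -0.60 and -0.29 after cobalt. All 8 values are negative, and the groups are more than 1 log2 unit apart (1.52 ± 0.14, adjusted p = 0.00017; -0.26 with median centring). Hif1a, the alpha subunit of HIF-1, stood at 0.18, 0.59, 0.38 and 0.41 and at 0.39, 0.06, 0.85 and 0.26, a difference of 0.00 ± 0.17 with full overlap.

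Of the prolyl hydroxylases, Egln2 (PHD1) differed by 0.90 ± 0.14 (adjusted p = 0.0016; -0.84 with median centring), and the hypoxia-inducible Egln3 (PHD3) stood at 0.21 to 0.64 after saline and 0.04 to 0.38 after cobalt and was not called (-0.26 ± 0.13). Hif3a, a HIF alpha subunit with inhibitory isoforms, differed by 0.41 ± 0.10 and lost its call when the base composition of probes was taken out.

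The other HIF targets and the glycolytic genes held calls in both directions. Among the HIF targets the shares higher and lower were 28.0% and 12.0%, against 12.7% and 17.5% of all genes. Of 25 HIF targets 7 were higher, 3 lower and 15 not called, with a median of 0.23 (-0.31 relative to all genes with median centring); the number lower ran from 0, without the saline 6 h, cobalt 24 h or cobalt 48 h array, over 1, without either 12 h array, to 5 without the saline 48 h array. Loxl2, a collagen cross-linking oxidase, stood at -0.30, -0.32, -0.03 and 0.49 after saline and at 1.07, 1.21, 1.54 and 1.43 after cobalt (1.35 ± 0.19, adjusted p = 0.0011). Ddit4 (REDD1), an inhibitor of mTOR signalling, was below 0 on every saline array and above 0 on every cobalt array (1.19 ± 0.23, adjusted p = 0.0045). With median centring both were near 0, at -0.04 and 0.00. The core ACGTG occurred in 12 of 20 HIF target promoters (60%) and in 10 of 20 glycolytic ones, where the palindrome CACGTG holds it on both strands. Among the 9856 promoters of tested genes its share was 24.2%, and among all promoters 19.7%.

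Of 22 genes of glycolysis and glucose transport, 3 were higher and 2 lower, with a median of 0.12 between median ratios of 0.49 after saline and 0.56 after cobalt. The shares higher and lower were 13.6% and 9.09%, against 12.7% and 17.5% of all genes. With median centring 2 were higher and 18 lower and the median was -0.89 relative to all genes. Aldolase Aldoa stood at 1.00, 0.27, 0.09 and 0.14 and at 1.12, 1.26, 1.47 and 1.13 (0.87 ± 0.20, adjusted p = 0.0093), and triosephosphate isomerase Tpi1 differed by 0.79 ± 0.19 (adjusted p = 0.012). Both were positive on all 8 arrays, with the 6 h saline value as the highest of the saline values, and both turned with median centring (-1.17 and -0.86). The neuronal enolase Eno2 went the other way at -0.82 ± 0.21, and was at -0.36 without a call after scaling between arrays.

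Classical hypoxia genes had overlapping values in the 2 pretreatments. The glucose transporter Slc2a1 lay between 0.66 and 1.42 after saline and between 0.56 and 1.38 after cobalt, a difference of -0.02 ± 0.23. Lactate dehydrogenase Ldha was at 0.21 ± 0.21, the pyruvate dehydrogenase kinase Pdk1 at -0.44 ± 0.16 and the mitophagy receptor Bnip3 at -0.60 ± 0.24. In the fit with duration as a factor, which matches arrays of equal duration, Pdk1 (adjusted p = 0.021) and Bnip3 (adjusted p = 0.0197) were called lower, and Pdk1 was also called with the software log ratio (-0.84). Without the saline 12 h array Pdk1 was called at -0.56, and without the saline 48 h array Bnip3 at -0.78. Adrenomedullin (Adm), a vasodilator peptide, stood at 0.55, 1.09, 1.24 and 0.18 after saline and at 1.95, 1.23, 0.01 and -0.37 after cobalt. Its mean difference of -0.06 averages positive differences at the shorter durations and negative ones at the longer durations. Both pretreatments read lowest at 48 h. Each value is a single array, so no course over time can be given. None of these 5 genes was called in the fit of 2 means, and the SEs of up to 0.47 leave room for differences of either sign.

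Haem oxygenase Hmox1, an antioxidant enzyme that cobalt is known to induce, stood at 1.05, 0.67, 0.07 and 0.15 after saline and at 1.24, 0.68, 1.74 and 0.75 after cobalt. The values at 6 and 12 h are alike and those at 24 and 48 h are higher after cobalt (0.62 ± 0.28, adjusted p = 0.119; called at 0.81 without the saline 6 h array). Metallothionein Mt1, a metal-binding protein, stood at 3.85, 2.25, 0.70 and 0.91 and at 2.33, 0.21, 1.16 and 0.07 and was not called (-0.99 ± 0.71). Superoxide dismutase Sod1 (-0.14 ± 0.12) and glutathione peroxidase Gpx1 (-0.03 ± 0.19) were not called either.

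Of 25 antioxidant and glutathione genes, 7 were lower, 3 higher and 15 not called, with a median of -0.15 (-1.39 relative to all genes with median centring). The shares lower and higher were 28.0% and 12.0%, against 17.5% and 12.7% of all genes. Gstp1, the pi class glutathione transferase, was between 0.39 and 0.91 after saline and between -0.15 and 0.18 after cobalt, with -0.68 and -0.48 on its probes. Gstm1 differed by -1.08 ± 0.18 (adjusted p = 0.0024). The extracellular glutathione peroxidase Gpx3 differed by 1.91 ± 0.36 in the other direction (adjusted p = 0.004; -0.06 with median centring).

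Xenobiotic metabolism had 7 of 20 genes lower, 1 higher and 12 not called, with a median of -0.34 (-0.88 relative to all genes with median centring). The shares lower and higher were 35.0% and 5.0%, against 17.5% and 12.7% of all genes. Cyp2f4 is shared with the club cell list. Cyp2a3, a nasal and lung P450, lay between -0.10 and 1.68 after saline and between -2.77 and -1.51 after cobalt (-2.71 ± 0.42), and its hypoxia signal cleared the background on 3 of 4 cobalt arrays. Cyp1a1, the dioxin-inducible P450, lay between -4.30 and -3.45 after saline and between -1.42 and -1.03 after cobalt. Its hypoxia signal cleared the background on 3 of 4 saline and 1 of 4 cobalt arrays, so both decreases are limited by background and the 2.62 between them is no measured size.

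Type II alveolar cells make surfactant, the lipid and protein film that keeps alveoli open. Of 16 markers 10 were higher and none was lower, with a median of 0.85, but 6 of the 16 had a saturated spot. Without these, 4 of 10 were higher and the median was 0.41; with median centring 12 of the 16 were lower and 2 higher (-0.80 relative to all genes). With the software log ratio 10 were higher and none lower, with a median of 0.81, so the direction turned with plain median centring and not with that setting. Genes with a saturated spot were higher more often in general, at 96 of 236 with 51 lower, against 2967 of 23917 with 4169 lower among the rest.

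Lpcat1, the acyltransferase that makes the main surfactant lipid, stood at -0.84, -1.46, -0.68 and -0.58 after saline and at 0.41, 0.20, 0.24 and 0.37 after cobalt, and its probes gave 1.20 and 0.75. Nkx2-1, the lineage transcription factor of lung epithelium, stood at -0.63, -0.90, -0.74 and -0.76 and at 0.16, 0.57, 0.24 and 0.26 (1.06 ± 0.12, adjusted p = 0.00045). The stearoyl-CoA desaturase Scd, which supplies monounsaturated fatty acids, was higher by 2.66 ± 0.30, with -1.64 to -0.37 after saline and 0.92 to 2.00 after cobalt. None of these 3 genes is saturated or overlaps between pretreatments. With median centring Lpcat1 (-0.31) and Nkx2-1 (-0.15) turned.

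Slc34a2, a phosphate transporter of type II cells, was at 0.47 ± 0.16 and lost its call without any single array other than saline 6 h, at 0.34 to 0.54, and with duration as a factor (adjusted p = 0.0542). Sftpc, surfactant protein C, differed by 3.21 on a saturated probe and by 0.56 on its other probe, and the coordinates of the 2 probes run in opposite directions, so that its size cannot be given. Sftpa1, surfactant protein A, was at 1.40 ± 0.13 with a saturated spot. Abca3, the lipid transporter of lamellar bodies, had probes at -0.17, -0.36 and 1.15. The surfactant genes measured with several probes thus gave sizes that depend on the probe.

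Of 20 transport genes of the alveolar barrier 1 was higher, 3 were lower and 16 were not called, with a median of -0.09 that was -0.53 at 6 h. With median centring 16 were lower and 3 higher (-0.76 relative to all genes). Aqp1, the water channel of lung capillaries, was the higher one and, like Bmp2, had its large ratios on the cobalt side, with the same limit. It stood at -0.27, 0.46, 0.29 and 0.10 after saline and at 1.69, 1.65, 1.97 and 1.84 after cobalt (1.64 ± 0.16, adjusted p = 0.000212; -0.65 with median centring). Aqp3, a glycerol channel of airway basal cells, stood at 2.73, 2.11, 1.30 and 0.57 and at 0.35, -0.48, -0.34 and -1.18 (-2.09 ± 0.45, adjusted p = 0.0079). The water channel Aqp5 of type I cells (0.48 ± 0.38) and the sodium channel Scnn1a (-0.29 ± 0.33) were not called.

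Of 30 TGF-beta, activin and BMP genes 11 were higher, 2 lower and 17 not called, with a median of 0.32. With median centring 2 were higher and 20 lower, and the median lay at -0.01 relative to all genes. The counts were 7 and 0 without the cobalt 24 h array and 7 and 1 without the cobalt 6 h array. Beside Bmp2, the ligand Bmp6 was between -2.01 and -1.32 after saline and between -0.53 and -0.06 after cobalt (1.24 ± 0.18, adjusted p = 0.0011). Smad6, the inhibitor of BMP signalling that the pathway itself induces, stood at -1.29, -1.88, -1.84 and -1.88 and at -0.27, -0.22, -0.15 and -0.61 (1.41 ± 0.16, adjusted p = 0.000408). Both are negative on all 8 arrays. Bmpr2, the receptor mutated in heritable pulmonary hypertension, was at 0.87 ± 0.18 on one probe and at -0.08 on the other. With median centring Bmp6 (-0.06), Smad6 (-0.60) and Bmpr2 (-0.61) turned.

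Smooth muscle genes hold the contractile proteins of vessels and airways. Of 12 smooth muscle genes 8 were higher, none was lower and 4 were not called, with a median of 0.60 and median ratios of 0.82 after saline and 1.18 after cobalt; 5 were higher without the cobalt 12 h or the cobalt 24 h array, and with median centring 7 were lower and 1 higher (-0.30 relative to all genes). Myh11, smooth muscle myosin, stood at -0.78, -1.03, -0.60 and 0.10 and at 0.69, 0.85, 1.44 and 1.26, with 1.64 and 0.80 on its probes. Calponin Cnn1 was positive on all 8 arrays, at 1.33, 0.76, 0.75 and 1.51 and at 2.01, 1.90, 2.32 and 1.82 (0.92 ± 0.20, adjusted p = 0.0076). The myosin light chain kinase Mylk differed by 0.94 ± 0.18. With median centring Myh11 (-0.49), Cnn1 (-0.20) and Mylk (-0.14) turned.

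Of 31 genes of fibrillar and basement membrane matrix 8 were higher, 3 lower and 20 not called, with a median of 0.53 (-0.58 relative to all genes with median centring, where 2 were higher and 22 lower), and with duration as a factor 16 were higher and 4 lower. In the fit of 2 means the shares higher and lower were 25.8% and 9.68%, against 12.7% and 17.5% of all genes. Eln, elastin, stood at -1.55, -0.76, -0.49 and -0.11 after saline and at 2.22, 1.73, 1.37 and 1.83 after cobalt (2.52 ± 0.29, adjusted p = 0.000424). The basement membrane collagen Col4a2 differed by 1.40 ± 0.18 and the matricellular Ccn1 by 1.57 ± 0.32, with saline values of -0.48 to 0.34 and -0.79 to 0.36 and cobalt values of 1.35 to 1.67 and 0.62 to 1.95. They turned with median centring (-0.08 and -0.45). Fibronectin Fn1, which has a saturated spot, was lower at -1.13 ± 0.22 and lost its call after scaling between arrays (-0.81).

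Among vasoactive genes, 9 of 32 were higher and 4 lower with a median of -0.03, and 5 were higher without the saline 48 h, cobalt 6 h or cobalt 24 h array. The median was 0.34 with the software log ratio, 0.37 with the strict filter and -1.03 with median centring, where 3 were higher and 21 lower. Endothelial nitric oxide synthase Nos3 stood at 0.82, 0.28, -0.12 and -0.55 after saline and at 1.25, 0.79, 0.96 and 0.61 after cobalt. The saline values are lower at longer exposures while the cobalt values stay above 0, and the call at 0.79 ± 0.27 (adjusted p = 0.0494) was lost without any array other than saline 6 h, at 0.57 to 0.89. Endothelin Edn1, a vasoconstrictor, was negative on all 8 arrays and not called (-0.61 ± 0.30), except with duration as a factor (adjusted p = 0.0155) and with median centring (-2.26).

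The chemokine Ccl2, which draws monocytes, was induced on every array but less after cobalt, with 1.39, 1.47, 1.96 and 2.31 against 0.76, 1.07, 0.82 and 1.06 (-0.86 ± 0.20, adjusted p = 0.0115; -0.47 without a call after scaling between arrays). Chemokines as a list had 5 of 29 higher and 6 lower (17.2% and 20.7%), and cytokines and their receptors 5 of 25 higher and 3 lower (20.0% and 12.0%). Of all genes 12.7% were higher and 17.5% lower. With median centring chemokines had 1 higher and 23 lower, and cytokines 5 higher and 15 lower. Il6 did not clear the background in the hypoxia RNA of any cobalt array and Tnf did so on 2 of 4, and neither is given a value here. The NF-kappaB subunit Nfkb1 had probes called at -0.44 and 0.61, so no direction can be given. The adhesion molecule Icam1 was at 0.45 ± 0.27 and not called. The mannose receptor Mrc1 of macrophages was lower on both probes, at -1.20 and -1.14, within a macrophage list of 3 higher and 4 lower of 21 (1 and 17 with median centring). Fcer2 (CD23), a B cell receptor for IgE, was negative on all arrays, less so after cobalt, with 1.07 and 0.31 on its probes.

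Haem and iron handling had 1 of 21 genes higher and 3 lower, and 1 higher and 13 lower with median centring. Transferrin (Tf) stood at 1.22, 1.83, 0.45 and 0.50 after saline and at 0.03, -1.07, 0.21 and -0.10 after cobalt (-1.23 ± 0.35, adjusted p = 0.0258). The call was lost without the saline 6 h, the saline 12 h or the cobalt 12 h array, and with duration as a factor (adjusted p = 0.0577). The transferrin receptor Tfrc was at 0.27 ± 0.16 and not called.

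Single arrays shaped some groups. The interferon-stimulated genes, which respond to viral infection and other triggers of type I interferon, had a median difference of 0.16 over 25 genes, made of 0.37, -1.86, 0.84 and 0.94 at 6, 12, 24 and 48 h. The median ratio of the list was -0.99, 1.20, -0.68 and -0.59 on the saline arrays and -0.51, -0.46, 0.40 and 0.37 on the cobalt arrays, so that the saline 12 h array stands apart. Isg15, a ubiquitin-like interferon product, read -1.52, 2.41, -0.86 and -1.11 after saline and -0.51, -0.55, 1.51 and 0.62 after cobalt. Called in this list were 3 genes, all higher, among them Bst2 and the transcription factor Irf1 (0.70 ± 0.16). With median centring none was higher and 14 were lower, with a median of -1.32.

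Erythroid genes had no call among 11 and a median of 2.40 at 48 h against -0.06, -0.49 and -0.22 before; with median centring 1 was higher and 4 were lower. Ahsp, the chaperone of alpha globin, read 3.13 on the cobalt 48 h array and at most 1.13 on the others. Hspa1a, the inducible heat shock protein 70, read 5.32 on the saline 12 h array with a saturated spot and at most 1.79 elsewhere, and it was called lower only with duration as a factor (-1.68, adjusted p = 0.0484) and with median centring (-3.57). Hspb1 was at -0.34 ± 0.20. The heat shock list had 2 of 28 higher and 4 lower, and none higher and 26 lower with median centring (median -2.16). These groups are described by array, since a mean over durations does not represent them.

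**Figure D4:**
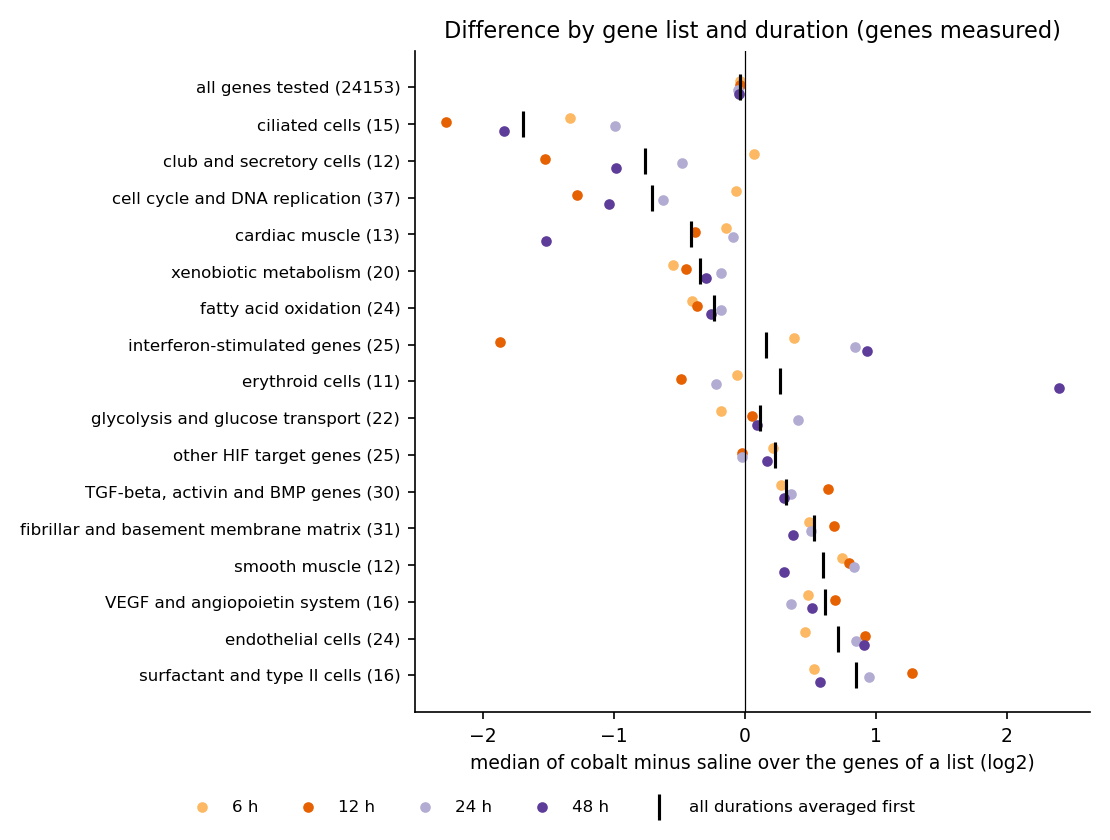
Median cobalt minus saline difference (log2, horizontal axis) over the measured genes of 16 gene lists and of all genes, at each of the 4 durations (coloured points, 1 saline and 1 cobalt array each) and after averaging the durations (black tick). Ciliated, endothelial and surfactant lists keep 1 sign at all durations after loess, whereas interferon-stimulated genes stand at -1.86 at 12 h alone and erythroid genes at 2.40 at 48 h alone. With median centring the endothelial, surfactant, VEGF, smooth muscle, matrix, HIF target, glycolysis, TGF-beta, interferon and erythroid medians turn negative. Of these, the VEGF and erythroid medians stay above that of all genes under the same setting.

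Whether the difference changed with exposure was tested by setting the late arrays (24 and 48 h) against the early ones (6 and 12 h) between pretreatments. A dye or slide effect that is constant over the 4 arrays of a slide cancels in this contrast. The limma fit called 0 of 24153 genes (0.0%), with a lowest adjusted p of 0.709, and 1311 genes had an unadjusted p under 0.05. Without the saline 6 h array 32 genes were called higher, and without the cobalt 12 h array 2 were called lower. On simulated data of this size the contrast recovered 0.5% of genes changed by 1 log2 unit and 92.5% of those changed by 2, so only large changes over time could have been seen.

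The 3 genes with the lowest p in that contrast serve as a description. Akap5, an anchor of protein kinase A, stood at -1.09, -1.23, 0.54 and 0.25 after saline and at 0.07, 0.45, -0.02 and 0.09 after cobalt (-1.78 ± 0.25). Ifitm3, an interferon-induced antiviral protein, stood at 0.97, 1.07, -0.27 and 0.06 and at 0.52, 0.45, 1.07 and 0.72 (1.54 ± 0.24). Nedd9, a scaffold of focal adhesions, stood at -0.87, -1.1, -0.18 and -0.09 and at -0.54, -0.20, -0.84 and -0.81 (-1.30 ± 0.23). In each, the saline arrays change level between 12 and 24 h and the cobalt arrays move the other way. In Ifitm3 and Nedd9 the early and late cobalt values do not overlap. None of the 3 genes passed in the limma fit (adjusted p = 0.916).

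Fatty acid oxidation had 7 of 24 genes lower (29.2%, against 17.5% of all genes) and 1 higher (median -0.24). It holds the lowest difference of all 24153 genes, that of the acyl-CoA thioesterase Acot1, which is named for that reason. Acot1 stood at 3.15, 2.70, 1.71 and 0.08 after saline and at -0.04, -2.86, -0.76 and -2.04 after cobalt (-3.34 ± 0.73, adjusted p = 0.0085). Its saline values are lower at longer exposures, the groups do not overlap, and whether transcripts of related thioesterase genes bind its single probe was not tested. The respiratory chain had 9 of 40 lower (22.5%, against 17.5% of all genes) and 3 higher (7.5%, against 12.7%), with a median of -0.08. Cox5b, a subunit of cytochrome oxidase, was positive on all arrays, between 0.71 and 0.93 after saline and between 0.11 and 0.24 after cobalt, but its probes gave -0.61 and -0.10. Cholesterol and fatty acid synthesis had 7 of 21 higher (33.3%, against 12.7% of all genes) and none lower (median 0.31; 3 higher without the cobalt 12 h or 48 h array and 4 without the saline 6 h, saline 12 h or cobalt 24 h array), among them Scd at 2.66 and the lipogenic factor Srebf1 with 0.81 and 1.27 on its probes. Ribosomal proteins had 9 of 37 higher and 12 lower, but 22 of them had a saturated spot; without these 1 of 15 was higher and 7 lower, with a median of -0.43. Rplp1, a stalk protein of the ribosome with a saturated spot, was at 2.00. With median centring the ribosomal median was -1.91 relative to all genes, that of fatty acid oxidation -1.34 and that of the respiratory chain -1.38, and that of lipid synthesis was -0.13 with 3 higher and 16 lower.

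Immediate early genes had 7 of 27 higher (25.9%, against 12.7% of all genes) and none lower, with a median of 0.30. With median centring that median was -0.22 relative to all genes. Without the cobalt 12 h array 4 were higher. Of the remaining lists, those of leukocytes, antigen presentation, adhesion, platelets, clock, glucocorticoid response, proteases, metallothioneins, proteasome, histones, type I cells, adipocytes and neighbouring tissues had up to 8 calls in either direction. Their medians lay between -0.45 and 0.49, against -0.04 for all genes, and between -1.90 and 0.84 relative to all genes with median centring.

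The dye and slide terms were examined as far as the files allow it. For the 10 spike-in transcripts, which are added at fixed ratios, the mean red-over-green ratio had the same sign on both slides for all 10, and slide 2 minus slide 1 ranged from -0.54 to 0.50 with a median of -0.29. Read with the formula used for genes, the spike-ins gave -4.28 to 7.08, which is the size that a fixed red-over-green ratio takes in this comparison. The ratios at which the spike-ins were added were not taken out. The shared sign and these values thus hold those ratios and give no size of a dye bias. The difference correlated across probes with the number of cytosines (r = 0.17, over 28440 probes) and of thymines (r = -0.13). Its median was -0.12 for probes with 8 or fewer cytosines and 0.11 for those with 18 or more. Taking base composition out left 6842 genes called, 6216 of the reported ones with the same sign.

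The normalization of the ratio to intensity mattered most. With median centring 19070 genes were called, 14959 of them lower, and of the 7283 called after loess 4079 were called with the same sign and 2608 turned. The share of higher genes among calls was 42.1% after loess, 44.5% with the software log ratio and 21.6% with median centring. The software log ratio, which has its own dye normalization, called 7744 genes and kept 6458 of the reported calls with the same sign.

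**Figure D5:**
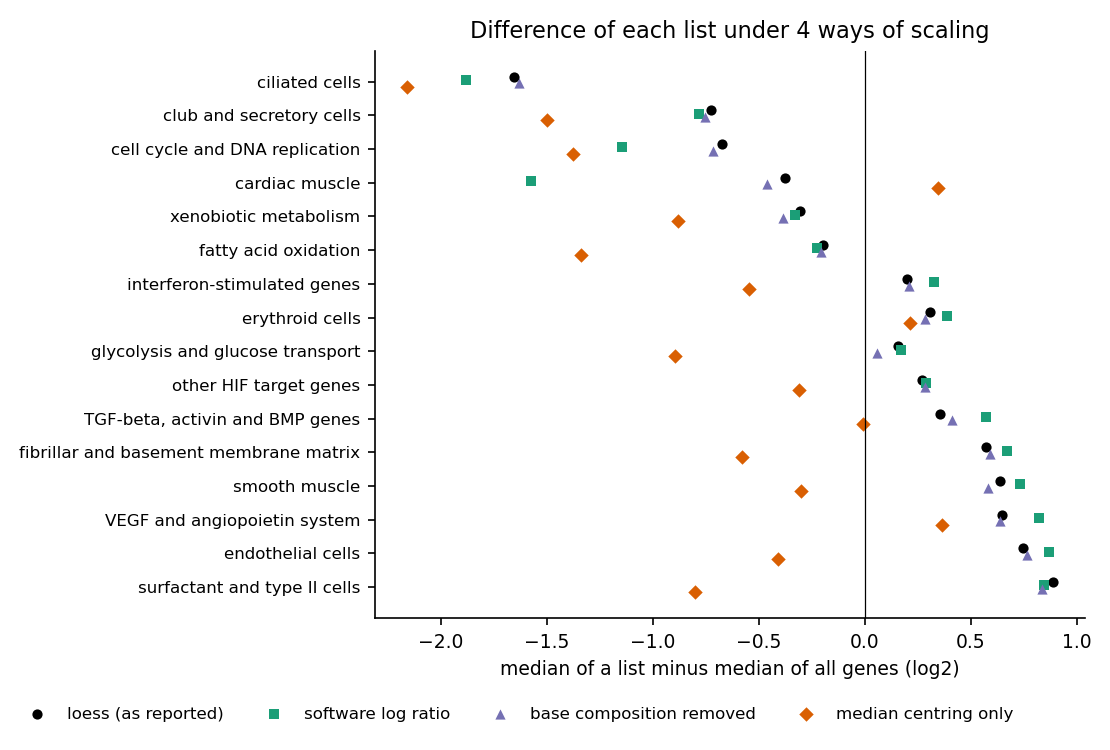
Median difference of 16 gene lists minus the median of all genes (log2, horizontal axis) after loess (black), with the software log ratio (green squares), after removing probe base composition (purple triangles) and with median centring alone (orange diamonds). Ciliated, club, cell cycle, xenobiotic and fatty acid oxidation lists lie below all genes under all 4, the VEGF and erythroid lists above under all 4, and the endothelial, surfactant, smooth muscle and matrix lists lie above under 3 and below with median centring.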

How the data were processed

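Per the file headers, Agilent Feature Extraction 9.5.1.1 wrote mean signals and local backgrounds as intensity, saturation flags, a LogRatio column (log10, red over green, after the software's own dye normalization), and probe coordinates of rn3. The deposited series matrix holds log2 ratios, with scale and direction read from the values: its columns match the LogRatio column in size. No other aligner or caller is given in the sources used here.

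Within limma 3.58.1 (R 4.3.3), the background was corrected by normexp with an offset of 50 and each array's ratios by loess. Outlier spots were dropped and saturated spots kept. Tested were probes that cleared the background, in one channel or the other, on 4 or more of the 8 arrays, and a gene is represented by its brightest probe. Of 41012 probes, 20922 kept the name in the file and the rest were named by RefSeq (GRCr8). Saturation was flagged on 120 to 232 red and up to 2 green spots per array.

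The fit had 2 means, with a variance trend over intensity. Members and lists were chosen with earlier results of these data known. Named were the 12 highest and 12 lowest genes with agreeing probes, up to 4 members of each of 45 lists by p, 32 genes chosen in advance (30 tested; Mt2A was not found on the array and Epo failed the filter) and 3 genes of the late contrast; 2 genes that this rule selects are not reported here. Chosen after their values were seen were Anp32a, Plpp3, Nfix, Dnah1, Foxj1, Rfx3, Tppp3, Scgb3a1, Myh6, Ttk, Ccne1, Mki67, Aplnr, Plvap, Nkx2-1, Abca3, Bmpr2, Fn1, Isg15 and Acot1. On simulated data with 200 changed genes the difference recovered 14.5% at 0.5 log2 units and 92.5% at 1. The number of arrays limits the precision.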

Additional observations from a re-analysis of the deposited data

Results flagged for a closer look

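The response to hypoxia differed between the pretreatments by the direct test of that difference for 3063 genes that were higher and 4220 genes that were lower in the cobalt response (limma, Benjamini-Hochberg adjusted p under 0.05, 4 arrays each). Pretreatment cannot be told apart from dye orientation, slide and scan in either number.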

How the results depend on the processing

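The choice between loess and median centring moved more values than any other setting run. With median centring, lower genes numbered 14959 in place of 4220, agreeing higher genes 88 and agreeing lower genes 1676. Of 23 lists with a median above 0, 22 fell below 0, and no list turned the other way. The 10 of them whose median exceeded its SD over the durations became, in log2 units, HIF subunits and oxygen-sensing hydroxylases -0.55, other HIF target genes -1.09, VEGF and angiopoietin system -0.42, endothelial cells -1.19, leukocyte adhesion molecules -1.07, surfactant and type II cells -1.58, smooth muscle -1.08, fibrillar and basement membrane matrix -1.36, immediate early genes -1.01, TGF-beta, activin and BMP genes -0.79. The other 12 became glycolysis -1.67, type I cells -1.91, inflammatory cytokines -0.78, interferon-stimulated genes -1.32, T and NK cells -1.17, neutrophils -0.66, mast cells and eosinophils -0.42, erythroid cells -0.56, platelets -1.20, cholesterol and fatty acid synthesis -0.91, circadian clock -0.94 and glucocorticoid-induced genes -2.03. Of the called genes named in the text 37 turned: Mmrn2 -0.28, Vegfa -0.24, Rab5c -0.42, Emilin1 -0.087, Pcdh17 -0.92, Raly -1.35, Ccdc39 0.032, Rfx3 0.24, Tek -0.56, Cdh5 -0.84, Sox18 -1.18, Plvap -0.58, Epas1 -0.26, Egln2 -0.84, Loxl2 -0.039, Aldoa -1.17, Tpi1 -0.86, Lpcat1 -0.31, Slc34a2 -1.64, Nkx2-1 -0.15, Sftpa1 -1.30, Aqp1 -0.65, Smad6 -0.60, Bmp6 -0.058, Bmpr2 -0.61, Myh11 -0.49, Mylk -0.14, Cnn1 -0.20, Col4a2 -0.079, Ccn1 -0.45, Gpx3 -0.060, Nos3 -0.48, Irf1 -0.68, Srebf1 -1.14, Plpp3 -0.83, Nfix -1.24, Rplp1 -0.72. Of the named genes without a call 11 turned: Tppp3 -2.43, Hif1a -2.05, Ldha -1.66, Hmox1 -0.99, Aqp5 -2.00, Tfrc -1.28, Icam1 -1.96, Isg15 -1.54, Ahsp -0.78, Akap5 -1.72, Ifitm3 -1.95. The values of lists and genes in this paragraph are not relative to the median of all genes, which was -0.78 there. A turned value between -0.78 and 0, as for Vegfa, Mmrn2 and Epas1, still lay above that median. The cause was not tested.

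Of the 92 called genes named, 78 had the same call under every alternative other than median centring, and 84 whichever array was left out. By the mean over probes Abca3 became 0.20 and Nfkb1 0.085. With scaling between arrays Slc2a1 became 0.33, Adm 0.056 and Gpx1 0.078. With the software log ratio Hif1a became -0.049, and the median of the list of thyroid, oesophagus and thymus genes -0.051; with the series matrix they became -0.050 and -0.053 (that list -0.0053 with base composition taken out, an alternative added after the data were seen). Leaving out each array in turn gave 2221 to 3154 higher genes, 2974 to 4122 lower genes, 164 to 286 agreeing higher, 94 to 149 agreeing lower, 0 to 32 late higher and 0 to 2 late lower genes. Over the same 8 fits the values nearest 0 ran from -0.47 to 0.30 for Adm, from -0.15 to 0.11 for Gpx1, from -0.15 to 0.11 for Hif1a, from -0.011 to 0.44 for Ifitm3, from -0.22 to 0.12 for Nedd9, from -0.52 to 0.068 for Scnn1a, from -0.16 to 0.12 for Slc2a1 and from -0.015 to 0.095 for the list of thyroid, oesophagus and thymus genes. A fit with duration as a factor, matching the arrays of equal duration, gave 7227 called genes, 6481 of the reported ones with the same sign; it has no counterpart for late against early. That fit is the paired analysis by duration; replicate numbers pair no arrays, since each group holds 1 array. On simulated data with 200 changed genes, 14.5% of differences of 0.5 log2 units were recovered. With 7283 genes called, the adjusted threshold is less strict, so that share cannot be carried over to these data.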
